A study of Mus musculus with 17 samples.

Results

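CD8 T cells that had recently been primed were compared with CD8 T cells at rest, to find what 2 different kinds of priming share and both resting states lack. The recently primed side comprised 9 arrays, 4 of cells that liver sinusoidal endothelial cells (LSEC) had primed in culture and 5 of effector cells (Teff) activated by splenic dendritic cells. The resting side comprised 8 arrays, 5 of naive cells and 3 of memory cells taken 3 months after infection with Listeria monocytogenes OVA, a strain carrying ovalbumin. Sides were assigned from the sample titles alone, and these 17 arrays were all the arrays analysed. All cells were OT-I, which carry 1 transgenic receptor for an ovalbumin peptide, on a C57Bl/6 background and aged 2 to 6 months. They were isolated lymphocytes by label, and total RNA was measured on Illumina mouse bead arrays. Naive and memory cells were labelled as spleen and the primed cells as coculture, except effector sample 8, which was also labelled as spleen. LSEC-primed samples 7, 14 and 15 are called Tpm in their cell type label, and sample 4 is not. Because primed cells were cultured and resting cells were not, priming and culture cannot be told apart in any result below.

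A resting T cell is small, divides rarely and is held in that state by transcription factors such as Klf2, which also keep it circulating through lymphoid tissue. When its receptor meets antigen on another cell, it grows, changes its surface receptors, takes up sugar and amino acids, and begins to copy its DNA and divide. Dendritic cells are the classical priming cells of lymphoid tissue. LSEC line the blood channels of the liver and can also present antigen to CD8 T cells, with a different outcome for the T cell.

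Levels are given as normalised log2 intensity per probe, so that a difference of 1 is a 2-fold change, and a level cannot be set against that of another gene. The mean difference is the mean of the LSEC-primed and effector group means minus the mean of the naive and memory group means. A gene was called over all 4 pairs when LSEC-primed and effector cells each differed in 1 direction from naive and from memory cells. Its p was the largest of the 4 limma p-values, adjusted over all 23699 features and called under 0.05. Whether samples of 1 group were taken from different mice or cultures is not labelled, and the p-values therefore cover the spread among these arrays alone, which may be technical.

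The arrays were not of equal quality. Memory samples 3 and 5 were the dimmest, with mean raw intensities of 140 and 96.7 against at least 227 on the other 15 arrays, and memory sample 5 had 16.1% of probes above background against 27.2% or more elsewhere. The CD8 T cell markers Cd3e, Cd3d, Cd8a, Cd8b1 and Thy1 were measured, and 4 or 5 of these 5 lay above background on every array. Memory sample 3 also carried raised endothelial and stromal genes. Igfbp7 and Angpt2 were chosen after their values were seen. Its Igfbp7 level, a secreted endothelial product, was 9.93 against 7.73 and 6.12 in memory samples 5 and 9, and its Angpt2 level, an endothelial cytokine, was 7.53 against 6.05 and 6.06. With memory sample 3 left out the count called over all 4 pairs was 389 genes, 270 higher and 119 lower. With memory sample 5 left out it was 394 genes, 296 higher and 98 lower.

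Both kinds of priming shared a change in 433 of 16462 named genes, 2.63% of those tested. Of these, 314 genes (1.91%) were higher and 119 (0.723%) lower in both primed groups than in both resting groups. The leading genes were taken from called genes whose sides do not overlap, ranked by the smallest of the 4 differences. Lack of overlap in them was thus a condition of their choice. The receptor tyrosine kinase Kit and the inhibitory receptor Lag3 led those that rose. Those that fell were led by the haemoglobin genes, the Notch pathway gene Dtx1 and the quiescence factors Klf2 and Klf3. In all 4 pairs a difference of at least 2-fold was found for 98 genes that rose and 41 that fell. All 9 primed arrays lay above all 8 resting arrays in 467 genes (2.84%) and below them in 181 (1.1%), 648 in all (3.94%), and this held in 295 of the 314 and 115 of the 119 called genes.

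A much larger number of genes was called by the mean difference alone. It called 4361 genes (26.5%), 2533 of them higher (15.4%) and 1828 lower (11.1%) in primed cells. Counts of list members called, given below, are to be read beside these shares and the 2.63% called over all 4 pairs. Of these, 3928 were not called over all 4 pairs. The median mean difference was 1.19 over the genes called higher over all 4 pairs, -1.21 over those called lower and -0.0026 over all named genes, on the log2 scale. Effector cells lay farther from rest: the genes called higher had a median of 1.29 and 1.39 for effector over naive and memory cells, against 0.91 and 0.98 for LSEC-primed cells. The genes called lower had medians of -1.32 and -1.53 for effector cells and of -0.89 and -1.11 for LSEC-primed cells.

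**Figure D1:**
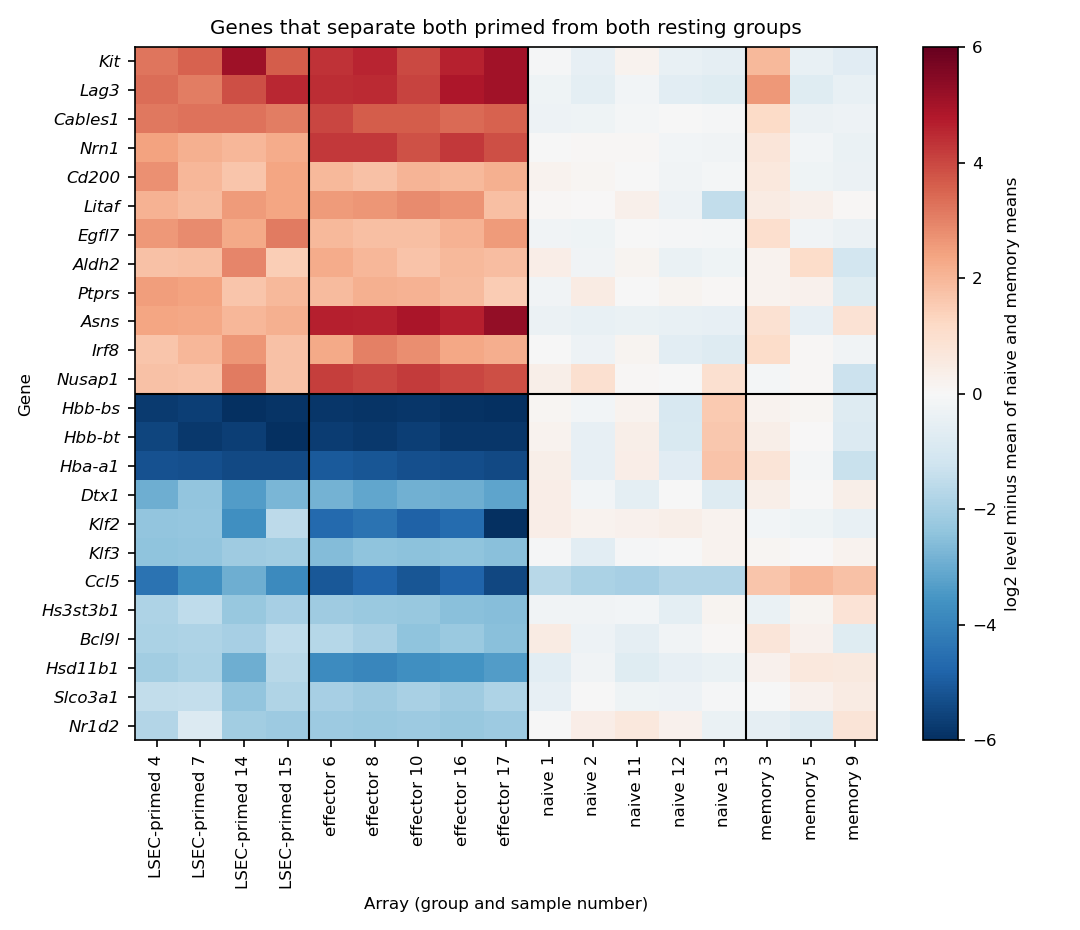
Level of the 12 genes highest and the 12 lowest by the smallest of the 4 group differences, in each of the 17 arrays, as log2 level minus the mean of the naive and memory means (red higher, blue lower). The genes were taken from called genes whose sides do not overlap, so the 9 primed arrays on the left are of 1 colour in each row by that choice. Memory sample 3 is pale red for Kit and Lag3.

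Among surface receptors, Kit, the receptor for stem cell factor, separated the sides most widely. Its level was 9.92, 10.25, 11.77 and 10.33 in LSEC-primed samples 4, 7, 14 and 15, and 11.03, 11.27, 10.68, 11.30 and 11.73 in effector samples 6, 8, 10, 16 and 17. It was 6.62, 6.21, 6.94, 6.24 and 6.17 in naive samples 1, 2, 11, 12 and 13, and 8.66, 6.25 and 6.03 in memory samples 3, 5 and 9. The sides did not overlap, and memory sample 3 stood above every other resting array. Only 2 naive arrays and 1 memory array were above background, so the size of the difference depends on levels near it. The mean difference was 4.18 ± 0.34 (SE) on the log2 scale, with a smallest pairwise difference of 3.59 (limma adjusted p = 0.000868 over all 4 pairs). Without memory sample 3 the smallest difference was 4.22.

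Lag3, an inhibitory receptor that binds MHC class II, also rose in both primings. It measured 9.89, 9.61, 10.41 and 11.06 in LSEC-primed cells and 10.99, 11.03, 10.59, 11.42 and 11.59 in effector cells. Naive cells gave 6.31, 5.98, 6.37, 5.94 and 5.84, and memory samples 3, 5 and 9 gave 9.13, 5.81 and 6.11. Memory sample 3 lay just under the lowest primed array, while the other 7 resting arrays were near background. The mean difference was 4.13 ± 0.37 (SE; adjusted p = 0.00414 over all 4 pairs), and the smallest of the 4 rose from 3.22 to 4.24 without memory sample 3.

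Cd200, a membrane glycoprotein that signals inhibition to cells carrying its receptor, was alike in both primings. LSEC-primed cells had 9.10, 8.34, 8.03 and 8.72, and effector cells 8.33, 8.12, 8.39, 8.31 and 8.51. Naive cells had 6.58, 6.49, 6.32, 6.15 and 6.25, and memory cells 6.99, 6.11 and 6.02. Each pairwise difference was at least 1.96 (adjusted p = 0.000131 over all 4 pairs), and the difference between the primings was 0.22 ± 0.20 (SE), which did not pass the test. Of the 11 measured members of the list of inhibitory receptors and ligands, 4 were called higher and 1 lower by the mean difference, with a median of 0.11. The shares of all named genes so called were 15.4% and 11.1%, and 2.63% were called over all 4 pairs. Over all 4 pairs Lag3 and Cd200 rose and Vsir, the checkpoint molecule VISTA, fell by 1.29 ± 0.10 (SE; adjusted p = 0.0159), a call lost without LSEC-primed sample 14 (0.051) or memory sample 9 (0.0987). Pdcd1, which encodes PD-1, was near background on nearly all arrays and differed by 0.11.

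**Figure D2:**
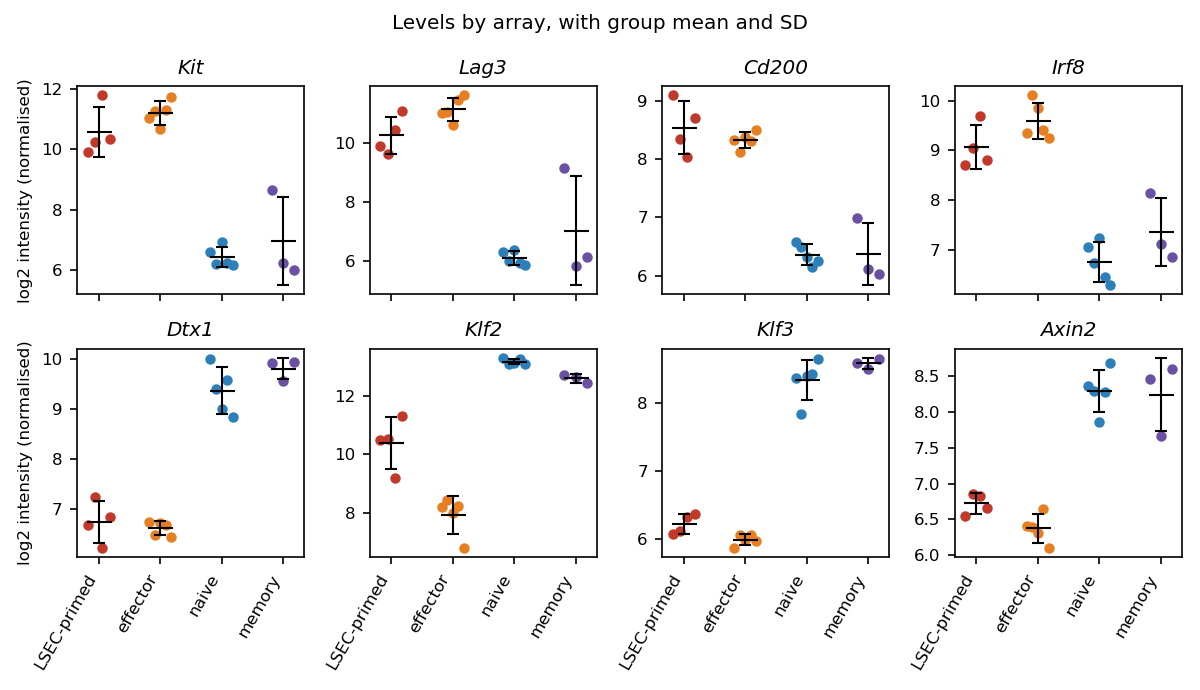
Normalised log2 intensity of 8 genes in each array (points) with the group mean and SD (bars) for LSEC-primed, effector, naive and memory cells. Kit, Lag3, Cd200 and Irf8 were higher and Dtx1, Klf2, Klf3 and Axin2 lower in all 9 primed arrays than in the 8 resting arrays.

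Transcription factors and signalling genes moved in both directions. Irf8, an interferon regulatory factor active in myeloid and activated T cells, had levels of 8.71, 9.06, 9.69 and 8.80 in LSEC-primed and 9.34, 10.11, 9.86, 9.40 and 9.26 in effector cells. The naive arrays gave 7.05, 6.74, 7.25, 6.45 and 6.29 and the memory arrays 8.14, 7.11 and 6.85. No array crossed between the sides, with memory sample 3 again the highest at rest. The mean difference was 2.27 ± 0.21 (SE; adjusted p = 0.00656 over all 4 pairs). Irf8 was the only 1 of 14 measured effector transcription factors called over all 4 pairs, where 2.63% of all named genes were. By the mean difference 4 of these factors were called higher and 5 lower, with a median of -0.12, which turned to 0.32 under median scaling.

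The other leading genes that rose have varied roles. Cables1, a link between cyclin-dependent kinases and other kinases, averaged 9.48 ± 0.08 (SD, n = 4) in LSEC-primed and 9.94 ± 0.23 (n = 5) in effector cells, against 6.13 ± 0.12 (n = 5) and 6.46 ± 0.83 (n = 3) in naive and memory cells. All naive arrays were at background, so that primed cells were at least 8.16-fold higher (adjusted p = 8.5e-06 over all 4 pairs). Nrn1, which encodes the cell surface protein neuritin, was at least 6.30-fold higher by the mean difference. Its smallest pairwise difference, LSEC-primed minus memory, was 2.16 on the log2 scale. It stood 1.88 lower in LSEC-primed than in effector cells (adjusted p = 1.1e-06). Litaf, which acts in endosomal trafficking, Aldh2, the mitochondrial aldehyde dehydrogenase, and the receptor phosphatase Ptprs rose by 2.37, 1.97 and 2.01. Aldh2 lost its call without memory sample 9 (adjusted p = 0.0607).

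Amino acid and one-carbon genes were among the shared rises. Asns, the synthetase that makes asparagine, had levels of 8.87, 8.83, 8.50 and 8.65 in LSEC-primed and 11.16, 11.13, 11.43, 11.17 and 11.77 in effector cells. It was 6.18, 6.05, 6.13, 6.05 and 6.02 in naive cells, all at background, and 7.41, 6.03 and 7.38 in memory cells. Each primed array lay above each resting array, and effector cells lay above LSEC-primed cells by 2.62 ± 0.22 (SE; adjusted p = 3e-07). By the mean difference primed cells were at least 8.98-fold higher (adjusted p = 0.000714 over all 4 pairs), with LSEC-primed minus memory the smallest pair at 1.77 on the log2 scale. Among all named genes 15.4% were called higher by the mean difference and 1.91% rose over all 4 pairs. Of 22 measured genes of nucleotide and one-carbon synthesis, 14 were called higher and none lower by the mean difference, and 4 rose over all 4 pairs. These were Psat1, of serine synthesis (mean difference 2.41), the folate enzymes Mthfd2 (1.80) and Shmt1 (1.72), and Pfas, of purine synthesis (1.04). Shmt1 and Pfas did not differ detectably between the primings (0.52 ± 0.24 and -0.06 ± 0.14, SE), whereas Psat1 was 1.61 lower in LSEC-primed cells (adjusted p = 4.6e-06). Mthfd2 lost its call without memory sample 5 (adjusted p = 0.0505). Bcat1, the cytosolic enzyme of branched-chain amino acid breakdown, chosen after its values were seen, was at least 3.44-fold higher (adjusted p = 0.00938 over all 4 pairs), a call lost without memory sample 5 (0.0545) or 9 (0.0532).

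Cell cycle genes were called higher by both rules. Every gene called over all 4 pairs was also called by the mean difference, so the smaller number over all 4 pairs follows from the rule. Of all named genes, 15.4% were called higher by the mean difference and 1.91% rose over all 4 pairs. Of 27 measured genes of DNA replication and S phase, 24 were called higher and 1 lower by the mean difference, with a median of 1.09. Of these, 9 rose over all 4 pairs, namely Cdc6, Cdc45, Gins1, Rrm1, Tyms, Fen1, E2f1, Cdca7 and Uhrf1, and none fell. Of 27 measured genes of mitosis and the spindle, 21 were called higher and none lower, with a median of 1.61. Over all 4 pairs 7 of these rose, namely Nusap1, Cdc20, Prc1, Bub1b, Birc5, Tpx2 and Mad2l1. Leaving out 1 array gave 6 to 10 shared replication genes and 5 to 9 shared mitosis genes. Cdt1, a licensing factor for DNA replication named after its value was seen, was the replication gene called lower, and it fell by 0.63 on the log2 scale.

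Nusap1, which binds spindle microtubules, illustrates how far each priming went. Its level was 9.50, 9.44, 10.84 and 9.50 in LSEC-primed and 11.88, 11.75, 11.93, 11.77 and 11.63 in effector cells. In naive cells it was 8.08, 8.69, 7.80, 7.71 and 8.69, and in memory cells 7.63, 7.80 and 6.44. LSEC-primed sample 14 stood more than 1 above the other 3 LSEC-primed arrays, all of which still exceeded every resting array. The mean difference was 3.07 ± 0.23 (SE; adjusted p = 0.00788 over all 4 pairs), and effector cells exceeded LSEC-primed cells by 1.97 (adjusted p = 0.00023). In the replication list Uhrf1, which maintains DNA methylation, rose by 2.21 and Cdca7, an E2F and Myc target, by 2.02. Tyms, which makes thymidylate, rose by 1.47, with LSEC-primed sample 7 at 7.42 level with memory sample 3, and its call was lost without any 1 of 4 arrays, LSEC-primed samples 4, 14 and 15 and memory sample 5 (adjusted p up to 0.101). Prc1, a cross-linker of the spindle midzone, lost its call over all 4 pairs without LSEC-primed sample 14, naive samples 1, 11 or 12, or memory samples 3 or 9 (adjusted p up to 0.169). In these 2 lists LSEC-primed cells were called below effector cells in 21 genes each and above them in none. Across all named genes 17.7% were called between the primings, 9.51% with LSEC-primed cells higher and 8.24% with them lower.

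The promoters of 3 mitosis genes and of Asns are shown because these genes rose in both primings and carry a motif that was searched for. They are the 120 bases before the RefSeq start of each gene in build GRCm38.p6, 5′ to 3′ on the gene's strand, with the motif in capitals. For the first 3 the capitals mark the CCAAT box (CCAAT or its reverse complement ATTGG), and for Asns they mark TGATGNAA, a composite element recognised by ATF4. Cdc20 lies at chr4:118437344-118437463 on the minus strand, Prc1 at chr7:80294331-80294450 on the plus strand, Bub1b at chr2:118598091-118598210 on the plus strand and Asns at chr6:7693210-7693329 on the minus strand.
Cdc20: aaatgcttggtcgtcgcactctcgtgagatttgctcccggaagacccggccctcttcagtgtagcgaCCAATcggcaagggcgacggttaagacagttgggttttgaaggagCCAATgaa
Prc1: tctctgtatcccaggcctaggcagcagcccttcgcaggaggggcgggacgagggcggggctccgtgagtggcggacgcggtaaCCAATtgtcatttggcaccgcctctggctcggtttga
Bub1b: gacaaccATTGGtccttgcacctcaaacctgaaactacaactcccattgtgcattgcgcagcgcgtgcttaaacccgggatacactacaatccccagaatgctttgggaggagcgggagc
Asns: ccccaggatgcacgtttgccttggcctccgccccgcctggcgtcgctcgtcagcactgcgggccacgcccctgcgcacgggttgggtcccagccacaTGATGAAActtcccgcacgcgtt

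The Cdc20 stretch held 2 CCAAT boxes, the nearest beginning 8 bases before the start, and the Asns element began 23 bases before the start. In the 250 bases before the start, on either strand, a CCAAT box was found in 18 of the 22 mitosis promoters in the table (81.8%), against 34.5% of all 27025 promoters and 35.9% of those of genes tested. Nusap1, Mad2l1 and Birc5 held none in this window, which says only that these letters are not there. Of the shared genes, 251 that rose and 87 that fell had a promoter in the table, and a CCAAT box was found in 40.6% and 41.4% of them, against 40.4% for genes called higher by the mean difference alone. The E2F motif, searched as TTTCCCGC or TTTGGCGC, was found in 3.98% of promoters of shared genes that rose, in 3.13% of those of genes called higher by the mean difference but not over all 4 pairs, in 2.00% of those of all genes tested, in 5 of 23 replication promoters (21.7%) and in 1.35% of all promoters. TGATGNAA was found in 2.39% of promoters of shared genes that rose, in 2.56% of those of genes tested and in 3.53% of all. For the E box CACGTG these shares were 9.16%, 7.45% and 6.05%. For the CHR motif, searched as TTTGAA, they were 12.0%, 12.7% and 16.3%, with 6 of 22 mitosis promoters (27.3%). These matches describe the sequences and do not show binding.

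Genes of energy metabolism were also called higher in primed cells. Across all named genes 15.4% were called higher by the mean difference and 1.91% rose over all 4 pairs. Of 15 measured glycolysis genes 13 were called higher by the mean difference, with a median of 1.47, and Tpi1 and Ldha rose over all 4 pairs. Tpi1, the triose phosphate isomerase, averaged 11.54 ± 0.45 (SD, n = 4) in LSEC-primed, 13.66 ± 0.08 (n = 5) in effector, 9.21 ± 0.19 (n = 5) in naive and 10.29 ± 0.79 (n = 3) in memory cells. Tpi1 lost the call without LSEC-primed sample 14 or memory sample 9 (adjusted p up to 0.0752), and Ldha, which makes lactate, without any 1 of 6 arrays (up to 0.148). Without either of the first 2 arrays no glycolysis gene was called over all 4 pairs. In this list LSEC-primed cells were called below effector cells in 14 of 15 genes. Slc2a3, a glucose transporter chosen after its values were seen, had the levels 10.47 ± 0.17 (SD, n = 4) in LSEC-primed and 12.70 ± 0.11 (n = 5) in effector cells, with naive cells at 9.51 ± 0.15 (n = 5) and memory cells between the primed groups at 11.06 ± 0.31 (n = 3). Of 15 cholesterol synthesis genes 14 were called higher by the mean difference, with a median of 0.99. Sqle, the squalene epoxidase, was the only 1 to rise over all 4 pairs, by 2.49 ± 0.14 (SE; adjusted p = 0.00178), and it was 2.30 lower in LSEC-primed than in effector cells. Of 24 oxidative phosphorylation genes 14 were called higher and none lower, with a median of 0.48. Ndufab1 (1.08), Cox5a (0.97) and Sdhb (0.74), subunits of respiratory complexes, rose over all 4 pairs, Sdhb not without memory sample 5 (adjusted p = 0.0708) or 9 (0.0674).

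Of 20 measured proteasome genes 13 were called higher and none lower, with a median of 0.37, and Psma4, Psma5 and Psmb2, subunits of the core particle, rose over all 4 pairs. Psma4 was 11.73, 11.37, 11.52 and 11.77 in LSEC-primed and 11.78, 11.58, 11.47, 11.70 and 11.50 in effector cells. It was 10.53, 10.47, 10.57, 11.02 and 10.90 in naive and 10.91, 10.68 and 10.85 in memory cells. The sides did not overlap, and the primings differed by -0.01 ± 0.12 (SE). Of 26 ribosome biogenesis genes 6 were called higher and none lower, and Npm1, the nucleolar chaperone nucleophosmin, alone rose over all 4 pairs, by 0.67, a call lost without LSEC-primed sample 4 (adjusted p = 0.0789). The median over the list was 0.03, and LSEC-primed cells were called above effector cells in 7 of the 26. Of 19 aminoacyl-tRNA synthetase genes 10 were called higher by the mean difference, and LSEC-primed cells were called below effector cells in 10. Of 15 chaperonin and chaperone genes 7 were called higher by the mean difference. In neither list was a member called over all 4 pairs, where 2.63% of all named genes were. Eif4ebp1, a repressor of cap-dependent translation chosen after its values were seen, rose by 2.24 (adjusted p = 0.00554 over all 4 pairs), with LSEC-primed minus effector at -1.83.

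**Figure D3:**
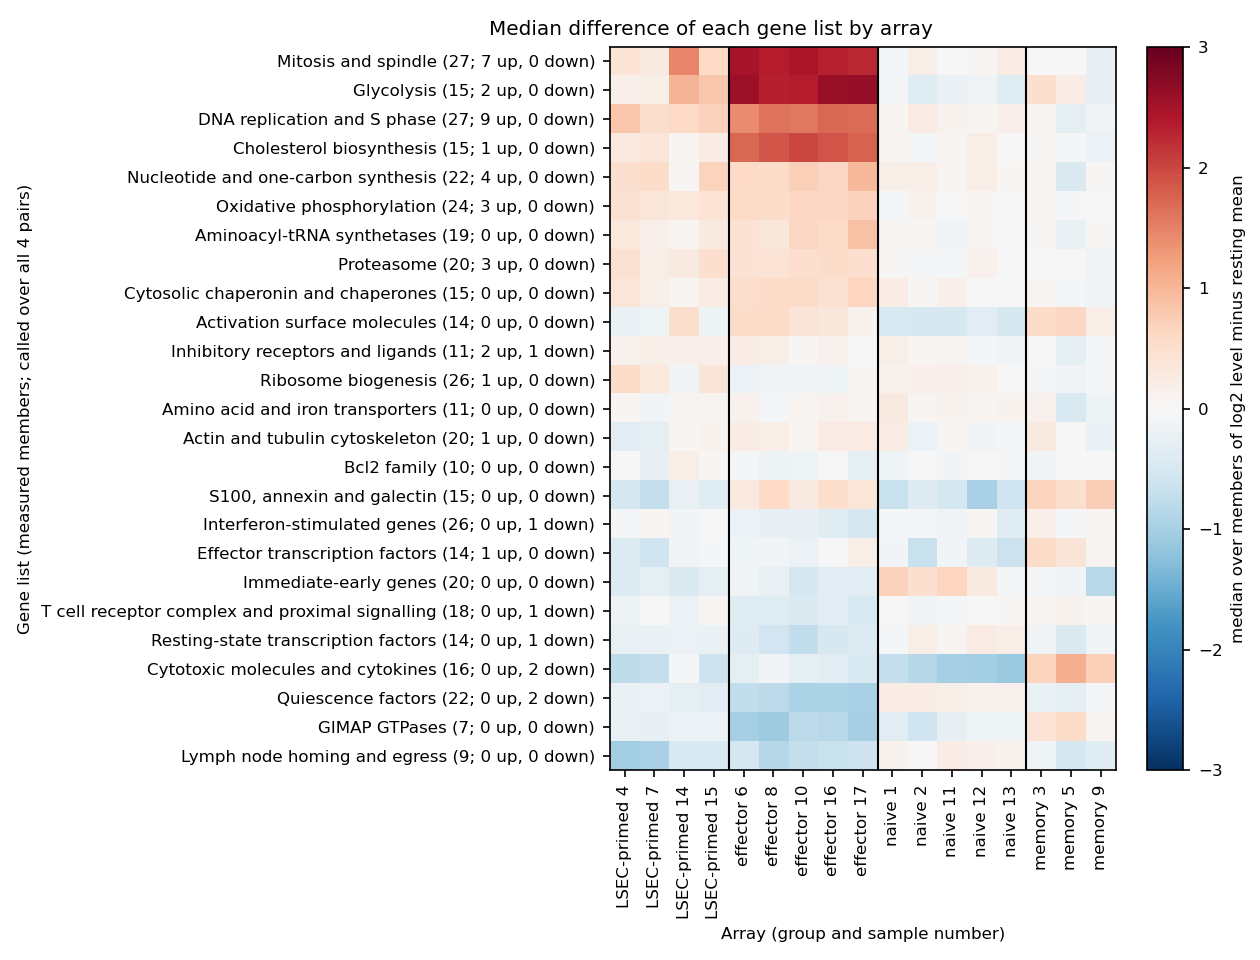
Median over the measured members of each of 25 gene lists of the log2 level minus the mean of the naive and memory means, in each array; labels give the number of measured members and how many were called over all 4 pairs. Mitosis, glycolysis, DNA replication and cholesterol synthesis are red on the 5 effector arrays and paler on the 4 LSEC-primed arrays.

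The quiescence factors Klf2 and Klf3 fell in both primings. Klf2, a transcription factor that holds T cells at rest and keeps their egress receptors on, had levels of 10.49, 10.54, 9.19 and 11.31 in LSEC-primed and 8.20, 8.44, 8.00, 8.26 and 6.83 in effector cells. It was 13.28, 13.08, 13.11, 13.24 and 13.08 in naive and 12.72, 12.63 and 12.42 in memory cells. From low to high the arrays fell into the order effector, LSEC-primed, memory and naive, with no overlap. Klf2 fell by 3.71 ± 0.25 (SE; adjusted p = 0.00403 over all 4 pairs), and LSEC-primed minus effector was 2.44 (adjusted p = 6.5e-05). Klf3, a related factor, measured 6.07, 6.11, 6.32 and 6.36 in LSEC-primed cells and 5.87 to 6.06 in effector cells, all 5 of these at background. The resting arrays lay between 7.84 and 8.66, and primed cells were at least 4.49-fold lower (adjusted p = 2.07e-07 over all 4 pairs). Of 22 quiescence factors 13 were called lower and 2 higher by the mean difference, with a median of -0.55, and Klf2 and Klf3 fell over all 4 pairs. Over all named genes 11.1% were called lower and 15.4% higher by the mean difference, and 0.723% fell over all 4 pairs. Ndrg1, a stress-responsive member named after its value was seen, was higher by 2.00 in the mean difference, with LSEC-primed cells -0.04 from naive and effector cells 3.50 above them. The cell cycle brakes Btg1 and Cdkn1b fell by 0.89 and 0.38 in the mean difference but were not called over all 4 pairs, and Btg1 turned to 0.10 under median scaling.

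Dtx1, a Notch target that promotes T cell anergy, fell in both primings alike. Its level was 6.68, 7.23, 6.22 and 6.84 in LSEC-primed and 6.74, 6.48, 6.72, 6.67 and 6.44 in effector cells. In naive cells it was 10.01, 9.41, 9.01, 9.58 and 8.84 and in memory cells 9.92, 9.57 and 9.94. The gap between the sides exceeded the range within either side, with a mean difference of -2.91 ± 0.16 (SE; adjusted p = 7.31e-06 over all 4 pairs). The difference between the primings, 0.13 ± 0.21 (SE), did not pass the test. Bcl9l, a coactivator of beta-catenin, fell by 1.98, and Axin2, an inhibitor and target of the same pathway that was chosen after its values were seen, fell by 1.71 ± 0.13 (SE; adjusted p = 0.000508 over all 4 pairs). Smad3, a transducer of TGF-beta signals also chosen after its values were seen, averaged 8.81 ± 0.17 (SD, n = 4) and 8.02 ± 0.17 (n = 5) in LSEC-primed and effector cells against 9.93 ± 0.34 (n = 5) and 11.86 ± 0.37 (n = 3) in naive and memory cells. Hs3st3b1, a heparan sulfate sulfotransferase, fell by 2.12, and Hsd11b1, which regenerates active glucocorticoid, fell by 2.90. The organic anion transporter Slco3a1 fell by 1.90, and the clock repressor Nr1d2 fell by 1.96, a call lost without LSEC-primed samples 4, 14 or 15 or memory sample 9 (adjusted p up to 0.126).

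Among other resting-state transcription factors, 8 of 14 were called lower and 2 higher by the mean difference, with a median of -0.37 that turned to 0.45 under median scaling. Runx1, which shapes naive T cell identity, alone fell over all 4 pairs; it was at background on all LSEC-primed arrays, so that primed cells were at least 1.76-fold lower (adjusted p = 0.00938). Of 9 genes of lymph node homing and egress 6 were called lower and none higher, with a median of -0.90. None was called over all 4 pairs by limma, where 2.63% of all named genes were. Il7r, the receptor for the survival cytokine interleukin-7, came closest. It measured 10.45, 11.06, 10.55 and 10.85 in LSEC-primed and 11.51, 11.25, 11.21, 11.44 and 11.82 in effector cells, against 12.15, 11.99, 12.44, 12.90 and 12.46 in naive and 12.40, 11.76 and 13.28 in memory cells. Effector sample 17 and memory sample 5 overlapped, and the adjusted p over all 4 pairs was 0.0627. Ccr7, the lymph node homing receptor, lay between the resting groups in both primings, with LSEC-primed minus naive at -1.53 and effector minus naive at -1.17, and with 1.96 and 2.32 above memory cells.

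Receptor and effector genes were called in both directions by the mean difference, more of them lower than higher, where 26.5% of all named genes were called. Of 18 measured genes for the T cell receptor and its proximal signalling 5 were called lower and 2 higher, with a median of -0.25 that turned to 0.24 under median scaling. Cd2, an adhesion and costimulatory receptor, alone fell over all 4 pairs, with a smallest difference of -1.28 (adjusted p = 0.00454). Of 16 cytotoxic molecules and cytokines 8 were called lower and 3 higher, with a median of -0.51 that turned to 0.05 under median scaling. The chemokine Ccl5 fell most among them. It measured 8.10, 8.87, 9.60 and 8.69 in LSEC-primed and 7.46, 7.74, 7.38, 7.73 and 7.05 in effector cells, against 10.87, 10.65, 10.54, 10.77 and 10.78 in naive and 14.18, 14.53 and 14.27 in memory cells. The 4 groups did not overlap, and the smallest of the 4 differences, LSEC-primed minus naive, was -1.91 (adjusted p = 0.000131 over all 4 pairs). Gzmm, the granule protease granzyme M, was at background on all 5 effector arrays. By the mean difference primed cells were at least 5.21-fold lower (adjusted p = 0.000109 over all 4 pairs), but memory cells set most of this. LSEC-primed and effector cells differed by -0.99 and -1.12 from naive cells and by -3.76 and -3.89 from memory cells, on the log2 scale. Gzmb was at background on every array by its only kept probe, so a lack of expression cannot be told from a probe that does not report. Xcl1, a chemokine for cross-presenting dendritic cells, had a mean difference of 3.01 but did not pass over all 4 pairs (adjusted p = 0.0634), memory sample 3 lying at 9.99 among the effector arrays. Irf7, the interferon regulator, was the only 1 of 26 interferon-stimulated genes called over all 4 pairs, where 2.63% of all named genes were. It fell by 1.87 (adjusted p = 0.0109). Its sides overlapped, with LSEC-primed sample 15 at 7.58 above naive sample 13 at 7.42. By the mean difference 9 of the 26 genes were called lower and 3 higher.

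Several textbook activation markers did not follow the division into primed and resting cells. Il2ra, the interleukin-2 receptor alpha chain, averaged 9.42 ± 0.19 (SD, n = 5) in effector cells but 6.66 ± 0.09 (n = 4) in LSEC-primed cells, below memory cells at 7.73 ± 0.14 (n = 3) and above naive cells at 6.12 ± 0.19 (n = 5). Cd44 averaged 8.19 ± 0.40 (SD, n = 4) and 9.01 ± 0.39 (n = 5) in LSEC-primed and effector cells, between naive cells at 7.01 to 7.45 (n = 5) and memory cells at 9.27 ± 0.40 (n = 3). Cd69 had a mean difference of -0.37 that did not pass the test (adjusted p = 0.0995), with both primings below naive and above memory cells. Myc had a mean difference of 0.44 (adjusted p = 0.00239) but differed by as little as 0.06 in 1 pair. Its probe was above background on 3 of 4 LSEC-primed, 5 of 5 effector, 1 of 5 naive and 1 of 3 memory arrays, so small differences there cannot be judged. The transferrin receptor Tfrc was 1.97 higher in the mean difference, its sides did not overlap, and its adjusted p over all 4 pairs was 0.0567. Of 14 activation surface molecules 6 were called higher and 2 lower by the mean difference and none over all 4 pairs. Of 20 immediate-early genes 6 were called higher and 8 lower and none over all 4 pairs, by limma. Since 2.63% of all named genes were called over all 4 pairs, lists this short cannot show fewer such calls than that share.

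The primings were then compared within the genes called over all 4 pairs, whose shared direction was set by that call. Of the 314 genes that rose over all 4 pairs, LSEC-primed cells were called below effector cells in 143, above them in 8, and not different in 163. Of the 119 that fell, LSEC-primed cells were called above effector cells in 45, below them in 3, and not different in 71. Between the resting groups, naive cells were called above memory cells in 26 and below them in 14 of the 314, and above in 7 and below in 22 of the 119, where 13.6% of all named genes were called. Neither pair was called in 143 genes that rose and 54 that fell.

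The widest differences between the primings among the rises were in Zbtb32, a repressor of the BTB family, Tubb6, a beta-tubulin, and Egln3, an oxygen-sensing prolyl hydroxylase, with LSEC-primed minus effector at -3.05, -3.04 and -2.99. Zbtb32 measured 7.13, 7.47, 7.82 and 7.33 in LSEC-primed and 10.35, 10.25, 10.38, 10.50 and 10.93 in effector cells, against 5.96 to 6.13 in naive cells and 6.12 to 6.61 in memory cells. Both primings exceeded every resting array, LSEC-primed cells by little and effector cells by far. Synpo, an actin-binding protein chosen after its values were seen, had the opposite order: 9.94, 10.07, 9.44 and 9.95 in LSEC-primed, 7.75 to 8.20 in effector and 6.11 to 6.44 in naive cells, with memory cells at 7.72, 6.11 and 6.17. LSEC-primed cells exceeded effector cells by 1.83 ± 0.24 (SE; adjusted p = 4e-05), and the call over all 4 pairs was lost without memory sample 5 (0.064) or 9 (0.0666). Among the falls, Klf2 and Gm11346 (1.69) were among the least reduced in LSEC-primed relative to effector cells. Ifi213, an interferon-inducible gene chosen after its values were seen, was 10.86, 11.27, 10.45 and 10.81 in LSEC-primed but 6.34 to 6.58 in effector cells, against 11.12 to 12.03 at rest. Its LSEC-primed and resting arrays overlapped, and its call over all 4 pairs (adjusted p = 0.0281) was lost when any 1 of 8 arrays was left out. At the other end, Acsl5, Ndufv2 and Cops4 rose with called differences between the primings of only 0.30, 0.31 and 0.33.

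**Figure D4:**
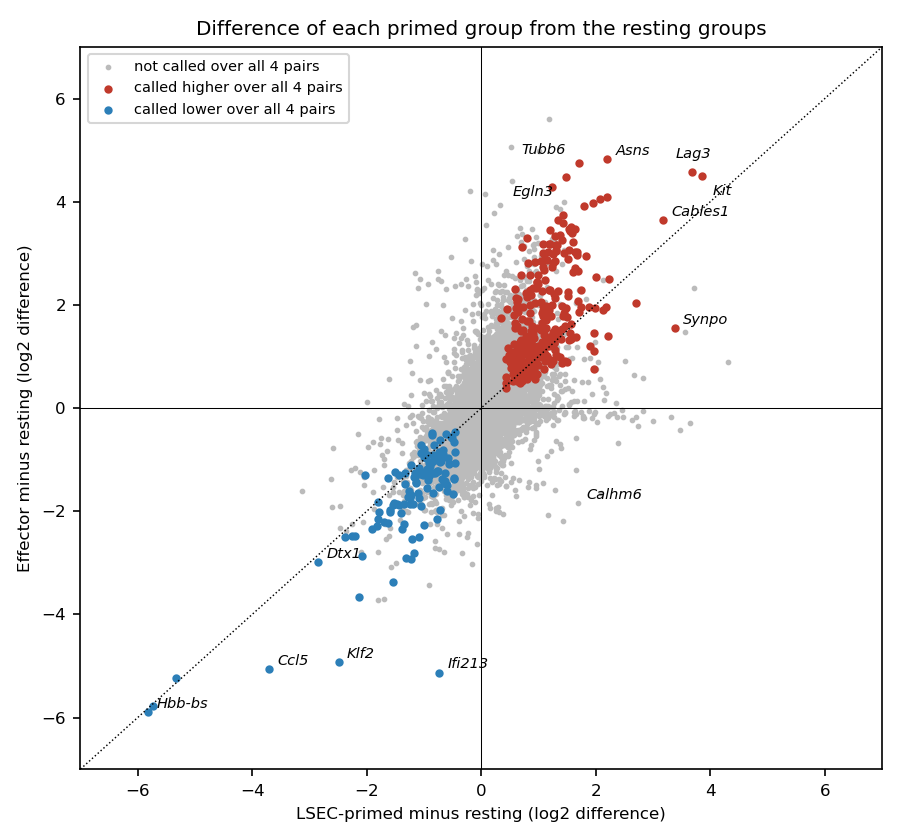
Mean log2 difference from the naive and memory groups of LSEC-primed cells (horizontal) and of effector cells (vertical), 1 point for each of 16462 named genes; red and blue points are the 314 and 119 genes called over all 4 pairs. Most red points lie above the dotted line of equal difference, and Kit, Lag3 and Cables1 lie near it.

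Calhm6, a channel protein at immune contacts, was the only gene called with the primings on opposite sides of both resting groups (0.00607%). It measured 10.18, 10.26, 10.53 and 10.09 in LSEC-primed and 6.60, 6.79, 6.84, 7.00 and 6.41 in effector cells, against 8.19, 8.27, 8.15, 8.23 and 7.94 in naive and 9.47, 8.57 and 8.93 in memory cells. LSEC-primed cells were thus above and effector cells below all 8 resting arrays, with a smallest difference of 1.28 (adjusted p = 0.048). This call held without memory sample 3 or effector sample 17 and was lost without any other 1 array. The mean difference of -0.07 does not show this. At an unadjusted p under 0.05, 27 genes had LSEC-primed cells on the upper side and 15 had effector cells there.

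Some genes were on in 1 side only at the sensitivity of these arrays. In 26 genes (0.158%) every primed array and no resting array lay above background, and 17 of these were called over all 4 pairs. Examples chosen after their values were seen are Rgs16, a regulator of G protein signalling, at least 2.44-fold higher in primed cells, Upp1, a uridine phosphorylase, at least 2.41-fold, the lipid transporter Mfsd2a, at least 1.95-fold, and the cytokine subunit Ebi3, at least 1.71-fold. Upp1 lost its call over all 4 pairs without memory sample 5 or 9, and Ebi3 without any 1 of 7 arrays. On memory sample 5 the lowest level above background was 7.47, against 6.2 to 6.4 on the other arrays. All LSEC-primed levels of Upp1 (6.91 to 7.46) and Ebi3 (6.43 to 7.04), and most of those of Rgs16 and Mfsd2a, lay under 7.47. That array therefore cannot show such genes to be off. In 3 genes (0.0182%) every resting array and no primed array lay above background, and all 3 encode haemoglobin chains. Hbb-bs measured 12.09, 11.80, 12.20, 10.99 and 13.53 in naive and 12.17, 12.09 and 11.19 in memory cells, and between 5.94 and 6.30 on all 9 primed arrays. It was at least 51.5-fold lower in primed cells, Hbb-bt at least 42.5-fold and Hba-a1 at least 29.7-fold.

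These haemoglobin genes are markers of red cells, and 5 of 5 measured erythroid markers were called lower in primed cells. Their summed level was 12.4 to 14.9 on naive, 12.4 to 13.7 on memory and 8.20 to 8.36 on primed arrays, where no marker was above background, effector sample 8 with its spleen label included. In bulk samples fewer cells of a type and less RNA per cell cannot be told apart. By the mean difference 15.4% of all named genes were called higher and 11.1% lower in primed cells, shares that apply to each marker list here. Of 20 LSEC markers 11 were called higher and 1 lower by the mean difference. Their summed level was 12.3 to 13.0 on LSEC-primed arrays (13 or 14 above background), 11.2 to 11.4 on effector arrays (6 or 7), 10.5 to 10.9 on naive arrays (3 to 6) and 11.5 to 11.9 on memory arrays (2 to 7). The median difference of the 20 markers from rest was 0.70 in LSEC-primed and -0.01 in effector cells. LSEC-primed cells were called above effector cells in 10 of them and below in 1. Within the list Stab2, Kdr, Clec4g and Gpr182 had mean differences of 0.17, -0.02, 0.17 and 0.05, Kdr and Gpr182 being above background on no array. The mean difference takes both primings together, so a rise in LSEC-primed cells alone is reduced in it. Angpt2 and Robo4 were raised on LSEC-primed and not on effector arrays. Egfl7, an angiogenic factor, and the scavenger receptor gene Stab1 and Oit3, both chosen after their values were seen, were the members of this list called over all 4 pairs. Egfl7 measured 8.79, 9.05, 8.45 and 9.31 in LSEC-primed and 8.14, 7.99, 8.02, 8.31 and 8.77 in effector cells, with naive cells at 5.95 to 6.18, all at background, and memory cells at 7.19, 5.99 and 5.86. Primed cells were at least 3.82-fold higher (adjusted p = 0.0005 over all 4 pairs). Stab1 was higher in effector than in LSEC-primed cells, at 9.26 ± 0.17 (SD, n = 5) and 7.76 ± 0.04 (n = 4). Of 12 stellate cell and fibroblast markers 5 to 8 were above background on LSEC-primed arrays and 5 on memory sample 3, against 0 or 1 elsewhere. LSEC-primed sample 14 had 10 of 11 macrophage markers above background, against 1 or 2 on the other LSEC-primed arrays, 0 or 1 on effector, 2 to 8 on naive and 1 or 2 on memory arrays. Dendritic cell markers summed to 11.4 to 12.0 on effector arrays (5 to 7 of 11 above background), to 10.2 to 12.8 on LSEC-primed (5 to 7), 10.0 to 11.6 on naive (4 to 6) and 10.2 to 11.5 on memory arrays (4 or 5). Of 9 neutrophil markers 4 were called lower in primed cells, with 1 to 5 above background on naive, 1 to 4 on memory and 0 or 1 on primed arrays, and summed levels of 9.29 to 10.9, 9.29 to 11.2 and 9.12 to 9.25. Of 5 NK cell markers 4 were called lower (median -0.74), with summed levels of 13.5 to 13.7 on memory, 11.8 to 12.3 on naive, 11.7 to 12.3 on effector and 11.9 to 12.8 on LSEC-primed arrays. The part of these other cells in the shared differences was not tested.

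**Figure D5:**
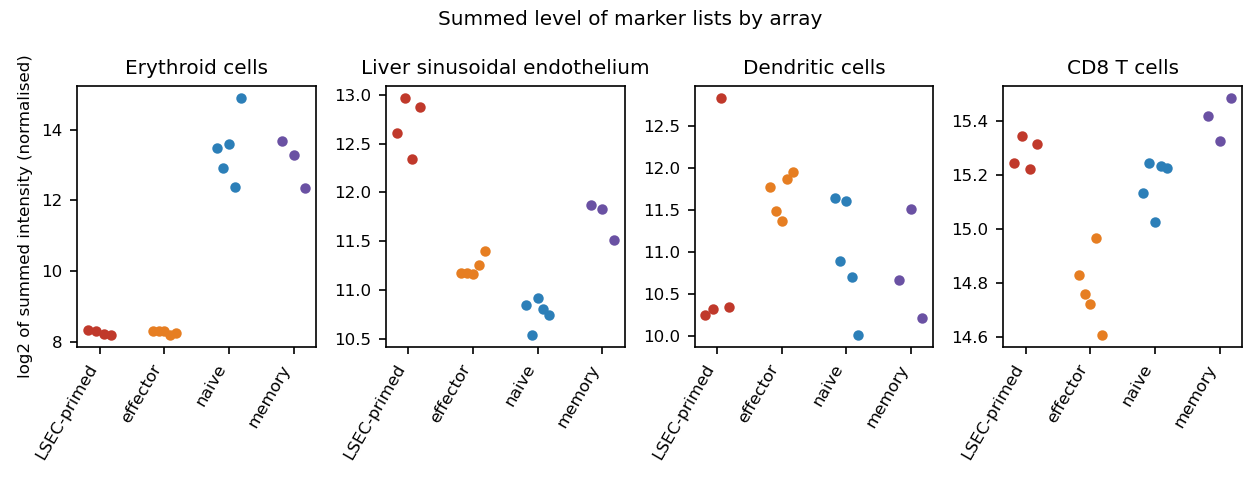
Log2 of the summed normalised intensity of 4 marker lists in each array (points), by group. Erythroid markers are at 8.20 to 8.36 on all 9 primed arrays and above 12 on all resting arrays, LSEC markers are highest on LSEC-primed arrays, LSEC-primed sample 14 has the highest dendritic cell markers, and CD8 T cell markers are present on all arrays.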

How the data were processed

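Per the file headers, intensity per probe was deposited by the authors on a linear scale, before normalisation and also after it. No source used here names the software. The first table, used here, lists 20 arrays, of which 3 columns without labels were not used. Lacking detection p-values, probes were filtered on each array's median. Background was corrected by normexp with an offset of 50, then quantile normalisation and log2 followed (limma 3.58.1, R 4.3.3). Of 45281 probes, 35237 lay above the array median on at least 3 arrays. The brightest probe stood for each symbol, giving 16462 named genes and 7237 unnamed features; 34885 probes had 1 symbol in the platform annotation of 2016. Background was each array's mode plus 3 SD of its lower side. An "at least" fold is given where no array of a group was above background, and takes every array of that side at the higher of its own value and the lowest level above background. It bounds the mean difference between the sides, and a single pair of groups can differ by less.

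One limma model with a mean per group (lmFit, eBayes, residual df 13) gave all differences, adjusted by Benjamini-Hochberg and called under 0.05. The steps were tested on simulated data. The fit had no covariates, no batch being labelled. Members and gene lists were chosen with earlier results of these data known. Genes named were the 12 highest and 12 lowest by the smallest of the 4 differences among called genes with sides that do not overlap, the 3 with the largest and the 3 with the smallest called difference between primings in each direction, up to 4 called members of each list, landmark genes and genes on opposite sides; others are marked as chosen after their values were seen. Of 102 genes so examined, 59 had another kept probe, which was called the other way in 1, Pip4p1. In several more no other kept probe was called by the mean difference, among them Cables1, Uhrf1, Cdc45, Bcl9l, Runx1, Npm1, Pfas, Bcat1, Oit3 and Stab1. For Ptprs 1 of 5 other probes was called the same way, and for Tyms 1 of 4. These genes rest largely on their brightest probe. Promoters are RefSeq's. The number of arrays limits the precision. Alternatives were the authors' processed values, other background correction, scaling, filters, probe choice, variance models and array weights, a 1.5-fold test, and each array left out.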

Additional observations from a re-analysis of the deposited data

Results flagged for a closer look

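In 306 groups of 4 or 5 arrays, from 102 genes, 14 held an array far from the others, and chance alone gives about 1 in 20. Effector sample 17 accounted for 5: it was low for Litaf (10.11 against 10.86 to 11.12 in the other effector arrays), Klf2 (6.83 against 8.00 to 8.44), Arhgef18 (7.90 against 8.72 to 8.84), Itgae (6.94 against 8.82 to 9.37) and Rgs16 (7.78 against 8.45 to 8.69). LSEC-primed sample 14 was high for Nusap1 (10.84 against 9.44 to 9.50) and Tfrc (11.62 against 10.40 to 10.53) and low for Oit3 (6.64 against 7.48 to 7.65). LSEC-primed sample 7 was low for Tyms (7.42) and LSEC-primed sample 4 high for Npm1 (13.92). Naive sample 2 was high for Vegfa (6.67) and Stab1 (7.03), naive sample 12 high for Acsl5 (11.27) and effector sample 8 low for Gm11346 (6.47). Calhm6 differed between the primings, LSEC-primed cells lying above and effector cells below both resting groups by at least 1.28.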

How the results depend on the processing

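The count called over all 4 pairs depended on the scaling. The 433 genes became 86 (83 higher, 3 lower) under median scaling, 140 (90 and 50) under cyclic loess, and 25 (15 and 10) in a test beyond 1.5-fold. Leaving out memory samples 3 and 5 together, chosen after seeing the data and with the lone memory array assumed to vary like the others, gave 280 (203 and 77). With 1 array left out the count was 358 to 425. The direction in all 4 pairs was kept by 362 of the 433 under median scaling, 429 under cyclic loess and 431 without both memory arrays. The 4361 genes called by the mean difference became 791 beyond 1.5-fold and 4104 to 4596 with 1 array left out. Under median scaling 4027 were called, 93.6% of them higher against 58.1%, while the median of all genes was 0.07. The cause of these shifts was not tested.

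The call on opposite sides became 0 under median scaling, no filter, array weights, the 1.5-fold test and without both memory arrays, and 0 to 1 with 1 array left out. Of 76 named genes called over all 4 pairs, 57 stayed called with any 1 array left out and 19 did not. Pip4p1 turned from -0.69 to 1.23 under median scaling, 0.42 under loess, 0.014 with the mean of its probes, 0.91, 0.55 and 0.74 without memory samples 3, 5 and 9 (-0.73 to 0.91 with any 1 array left out), and 0.72 without samples 3 and 5; its smallest difference became 0.20 and 0.0016 under the 2 scalings. The brightest probe was chosen anew wherever the scaling, the filter or the arrays changed, and the other kept probe of Pip4p1 was called the other way. A change of probe may therefore be part of its turns, which was not tested. Under median scaling Itsn2 turned to 0.23 and Btg1 to 0.10. No paired analysis was possible because each sample number belongs to a single group. Low signal on memory samples 3 and 5 limits what can be called against memory cells.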

Other observations

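The array nearest to the other side differed between the groups in the shared genes. Among the 314 genes that rose, the highest resting array was naive sample 2 in 82 and memory sample 3 in 62, and the lowest primed array was an LSEC-primed one in 54, 65, 65 and 66 genes for samples 4, 7, 14 and 15, against 4 to 20 for each effector sample. Vegfa, an angiogenic factor chosen after its values were seen, averaged 7.52 ± 0.46 (SD, n = 4) in LSEC-primed and 9.83 ± 0.21 (n = 5) in effector cells. It was at background on all memory arrays and at least 4.38-fold lower at rest by the mean difference, with LSEC-primed minus naive the smallest pair at 1.37 on the log2 scale. Rasa3, a Ras GTPase-activating protein, and Dock2, a Rac exchange factor for lymphocyte migration, both also chosen after their values were seen, fell by 2.11 and 1.47. Dock2 lost its call over all 4 pairs without LSEC-primed samples 4 or 7 or naive samples 1 or 12 (limma adjusted p up to 0.0786).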
